A study of Mus musculus with 18 samples.

Results

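Untreated mouse embryonic fibroblasts that carried the mutant allele in the homozygous state were compared with untreated fibroblasts that carried it in the heterozygous state. The members are the arrays whose labels read homozygous or heterozygous without TGFb, 2 of each, which makes 4 of the 18 arrays of the series. The other 14 hold wt fibroblasts and cells given TGFb1. Fibroblasts were grown from E12.5 to E14.5 embryos whose head, liver and blood clots had been taken off, in DMEM with 10% FBS. All 4 arrays share that source and medium, and all 4 carry the mutant allele, so the comparison is between allele doses and holds no wt cell. The title of the series puts a point mutation in TGFBR1. The design text instead names a TGFb1 mutant and calls it constitutively active, so only "the mutant" is used here. The treated arrays set beside them come from cells kept with TGFb1 at 5 ng/mL, either 4 h or 24 h long. The labels give neither strain nor litter nor embryo. Whether the 2 arrays of a genotype are different cultures is not stated either. The homozygous and wt pairs differed within the pair in sex-linked RNA, as given below, so the arrays of those pairs did not share a culture. For the heterozygous pairs the values do not settle it, and their variation may be technical. Each p-value below is relative to the variation among the arrays alone.

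TGFb1 is a secreted ligand that binds the type II receptor TGFBR2, which then phosphorylates the type I receptor TGFBR1. TGFBR1 in turn phosphorylates SMAD2 and SMAD3, which enter the nucleus with SMAD4 and bind DNA at short elements that hold the letters CAGAC. In fibroblasts the pathway is known for raising collagen, elastic fibre and contractile genes and for inducing its own inhibitors SMAD7, SKIL and PMEPA1. Cultures grown from embryo bodies are mainly mesenchymal and can hold macrophages and other cell types.

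Levels are log2 of the deposited GCRMA intensity, so a difference of 1 is a change of 2-fold, and log2 5 was taken as the level under which a probe set is too dim to measure. The 4 arrays were alike in quality: the median linear intensity was 8.652 to 8.906 and 40.2% to 40.4% of probe sets lay above log2 5. The arrays of a pair correlated at r = 0.994 (heterozygous) and 0.993 (homozygous) across genes, which are not independent replicates, and 82 and 54 genes differed over 2-fold within those pairs. All 10 fibroblast markers were measured, with Vim at 15.84 to 15.91 and Col1a1 at 15.39 to 15.62 log2, and none of 14 liver and kidney markers passed the filter on dim probe sets. The homozygous pair was mixed in sex-linked RNA. Xist read 11.88 and 1.58 log2 in homozygous arrays 1 and 2 and 11.77 and 11.73 in the heterozygous arrays, while the Y-linked Eif2s3y read 10.78 in homozygous array 2 and 2.86 to 2.93 in the other three. The counts of calls, the differences of the named genes and the medians of the gene lists were therefore also computed without each untreated mutant array and with the mean level of the Y-linked genes as a covariate.

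No gene passed the test between untreated homozygous and heterozygous cells. Of 10078 genes, 0 were called at an adjusted p under 0.05 (0%) with limma on all 18 arrays, where the spread of each gene is pooled over the 9 groups. The smallest adjusted p was 0.0785, shared by Tmem87a and Gatm. At an unadjusted p under 0.05 lay 340 genes (3.37%), 208 higher (2.06%) and 132 lower (1.31%) in homozygous cells. The median difference of all genes was 0.01 log2, and 33 genes differed over 2-fold, 20 higher and 13 lower. Within pairs the standard deviation over genes was 0.183 and 0.192 log2 for the untreated mutant arrays and 0.321 to 0.387 for wt arrays. When only the 12 mutant arrays entered the fit, 7 genes were called (0.0695%): Alad (adjusted p = 0.000824), Tmem87a (0.00476), Gm14057 and Pax1 (both 0.0186), Erdr1 (0.0283), Gatm (0.0320) and Hpgd (0.0477). With the 4 untreated arrays alone 0 were called, with a smallest adjusted p of 0.416 and 1035 genes at an unadjusted p under 0.05. In what follows, genes are named by the 10 smallest unadjusted p-values in each direction, among genes whose pairs do not overlap, whose higher group mean is log2 6 or more and whose symbol is no predicted gene or clone, and none of those 20 passed over all 18 arrays.

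**Figure D1:**
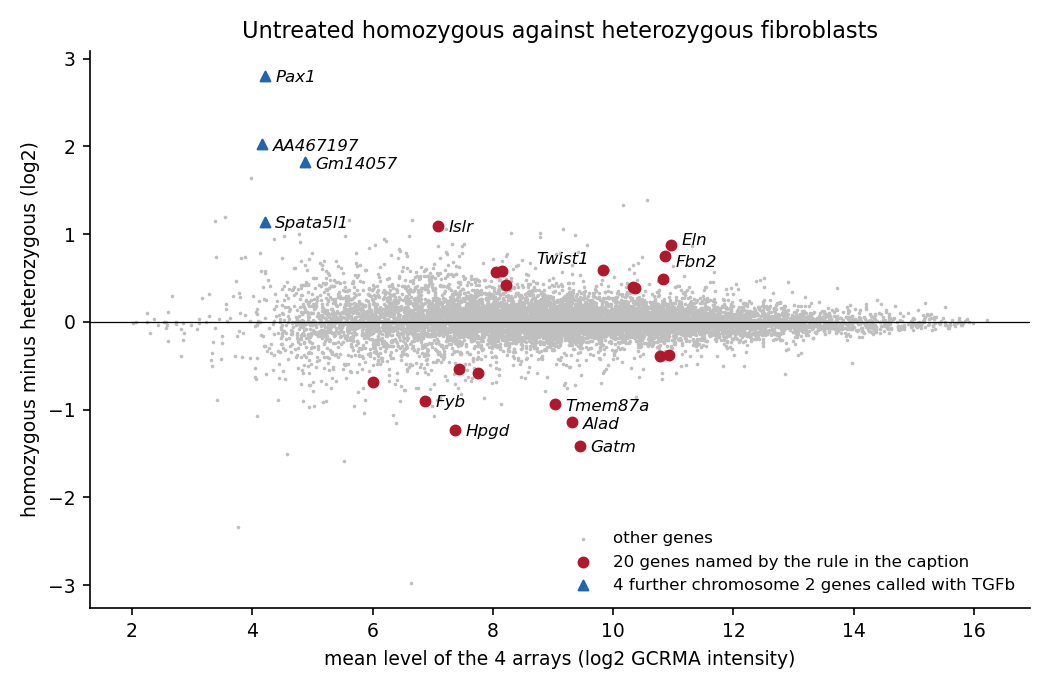
Each point is a gene: its mean level over the 4 untreated mutant arrays in log2 GCRMA intensity (x) against the log2 difference of homozygous minus heterozygous means (y). Red circles are the 10 genes each way with the smallest unadjusted p among those with non-overlapping pairs, a higher group mean of log2 6 or more and no clone name; blue triangles are 4 chromosome 2 genes below that level, of which Pax1 has a smaller p than most red genes, and Xist, Eif2s3y, Uty and Kdm5d are left out of the plot. Gatm, Alad and Tmem87a stand below a band of bright genes that lies near 0.

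By their brightest probe sets, and apart from Id1, the receptor, its ligand and the best known responses of the pathway lay at nearly the same level at 1 and 2 mutant alleles. Tgfbr1, the type I receptor gene, read 10.54 and 10.53 log2 in the heterozygous and 10.49 and 10.39 in the homozygous arrays, a difference of -0.09 ± 0.10 (SE of the limma fit, as for every error below). That level says nothing of the mutation itself. Tgfbr2, the type II receptor gene, differed by 0.17 ± 0.14, and Tgfb1, the ligand gene, by 0.18 ± 0.10. A dimmer Tgfbr2 probe set that passed the filter had a mean of 6.80 in heterozygous and 7.43 in homozygous cells, a difference of 0.63. Among immediate targets, the inhibitory Smad gene Smad7 differed by -0.21 ± 0.21 and the SMAD corepressor gene Skil by -0.03 ± 0.09. Ccn2, which encodes a matricellular growth factor, differed by -0.03 ± 0.07. Id1, a helix-loop-helix inhibitor gene that TGFb and BMP signals regulate, read 11.59 and 11.31 against 11.01 and 10.91 log2, a difference of -0.49 ± 0.34. The homozygous arrays lay below the heterozygous ones, but by about the size of the pooled error, which the untreated wt arrays at 10.91 and 12.42 enter. Over the 12 mutant arrays the limma error of Id1 was 0.17 (unadjusted p = 0.0153, adjusted p = 0.436). In that limma fit Tgfb1, Col1a1 and Smad7 had unadjusted p of 0.0316, 0.0335 and 0.0490 and adjusted p of 0.490, 0.495 and 0.547. The smooth muscle genes Acta2 and Tagln, bright in all 4 arrays at 15.42 to 15.49 and 14.91 to 15.02 log2, differed by 0.01 ± 0.08 and -0.06 ± 0.06. Col1a1, the main fibrillar collagen chain, differed by 0.17 ± 0.11, and the cytokine gene Il11 by -0.13 ± 0.28. None of these 11 genes passed the test.

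Over the wider pathway lists the differences were small too, and more members lay above 0 than below in 3 of 4 lists. Of 26 TGFb/Smad target and feedback genes, 16 lay above and 10 below 0, with a median of 0.04 log2, and 0 were called (all genes: 51.8% above and 48.2% below 0, median 0.01). The members at an unadjusted p under 0.05 were Spsb1, a SOCS-box adaptor gene, at 0.46 ± 0.18 and Pmepa1, a feedback inhibitor gene, at 0.21 ± 0.08. Pmepa1 read 13.10 and 13.26 log2 in heterozygous and 13.38 and 13.41 in homozygous cells. Of 24 TGFb and activin ligand, receptor and Smad genes, 19 lay above 0 and 5 below, with a median of 0.12. The pairs did not overlap for 11 of these 24 on the higher side and for 1 on the lower (all genes: 22.6% and 21.4%). Tgfb2, another ligand gene, was the only member at an unadjusted p under 0.05: it read 11.38 and 11.28 against 11.60 and 11.79, a difference of 0.36 ± 0.10. The median of the target list was -0.01 without heterozygous array 2. Of 12 BMP pathway and Id genes 7 lay above and 5 below 0, with a median of 0.04. The median hides a division: the 5 below 0 were Bmper and all 4 Id genes, and the pairs of all 5 did not overlap (5 of 12, against 21.4% of all genes on the lower side). Id2 read 13.39 and 12.92 log2 in heterozygous against 12.71 and 12.42 in homozygous cells (-0.60 ± 0.31), Id4 9.36 and 9.23 against 9.04 and 8.70 (-0.42 ± 0.37) and Id3 12.80 and 12.73 against 12.60 and 12.52 (-0.21 ± 0.29). None of the Id genes reached an unadjusted p under 0.05 in the fit over 18 arrays, and with TGFb all 4 lay higher in homozygous cells, by 0.25 (Id1) to 0.34 (Id4). They were singled out after their values were seen. Of 28 contractile and myofibroblast genes, 10 lay above and 18 below 0, with a median of -0.04, and Tagln2, an actin-binding protein gene, lay at -0.24 ± 0.09.

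The genes nearest to passing sat on chromosome 2 more often than its share of genes. Chromosome 2 held 812 of the 10078 genes (8.06%) and 15 of the 71 genes with an unadjusted p under 0.01: 1.85% of its genes against 0.705% of all genes. Of those 15, 7 lay higher and 8 lower in homozygous cells. They were spread unevenly: 12 lay in the stretch of 200 measured genes from Tmem87a to Nfs1 in RefSeq order, and 3 among the other 612. That stretch was marked out after the values were seen, so the count is a description. Of the 7 genes called over the 12 mutant arrays 4 lie on chromosome 2 (Tmem87a, Gatm, Gm14057 and Pax1).

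The promoters of 4 of these genes are shown because these genes of 1 chromosome are described one by one below and 2 of them lie side by side. They were chosen after their values were seen. Each window holds 250 bases before and 50 after the transcription start, from RefSeq on GRCm38.p6, 5′ to 3′ on the gene's own strand; the authors' files name no genome build. Capitals mark the letters CAGAC or their reverse complement GTCTG, searched on both strands, the core of the SMAD-binding element. The windows are chr2:120404067-120404366 on the minus strand for Tmem87a, chr2:122611228-122611527 on the minus strand for Gatm, chr2:122630375-122630674 on the plus strand for Spata5l1 and chr2:147364744-147365043 on the plus strand for Pax1.
Tmem87a: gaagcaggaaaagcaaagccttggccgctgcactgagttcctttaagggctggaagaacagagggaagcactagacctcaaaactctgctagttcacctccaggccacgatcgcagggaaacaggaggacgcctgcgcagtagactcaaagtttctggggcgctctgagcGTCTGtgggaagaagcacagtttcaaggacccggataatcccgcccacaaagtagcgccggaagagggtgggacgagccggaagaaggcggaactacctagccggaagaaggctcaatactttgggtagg
Gatm: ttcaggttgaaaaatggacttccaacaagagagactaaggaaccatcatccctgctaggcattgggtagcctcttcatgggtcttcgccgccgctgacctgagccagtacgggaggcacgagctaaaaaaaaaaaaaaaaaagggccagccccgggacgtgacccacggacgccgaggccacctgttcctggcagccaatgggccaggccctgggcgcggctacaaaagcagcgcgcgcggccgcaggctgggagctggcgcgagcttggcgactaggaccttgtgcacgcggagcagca
Spata5l1: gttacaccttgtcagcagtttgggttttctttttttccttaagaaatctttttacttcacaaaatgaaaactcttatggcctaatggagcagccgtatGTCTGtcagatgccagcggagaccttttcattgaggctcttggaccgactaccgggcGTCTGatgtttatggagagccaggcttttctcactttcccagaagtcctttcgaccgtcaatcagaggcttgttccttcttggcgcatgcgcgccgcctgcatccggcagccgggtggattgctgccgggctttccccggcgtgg
Pax1: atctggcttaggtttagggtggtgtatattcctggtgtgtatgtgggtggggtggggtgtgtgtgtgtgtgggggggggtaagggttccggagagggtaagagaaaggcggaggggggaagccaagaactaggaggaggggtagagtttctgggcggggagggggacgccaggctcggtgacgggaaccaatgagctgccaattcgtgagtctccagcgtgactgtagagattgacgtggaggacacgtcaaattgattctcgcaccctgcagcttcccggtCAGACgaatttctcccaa
The letters occur 1 time for Tmem87a, 0 times for Gatm, 2 times for Spata5l1 and 1 time for Pax1, while 49.6% of 32851 promoter windows of the same length hold them. A match of 5 letters is a description, not a binding site. The 4 windows hold 13 to 22 CG dinucleotides, against a median of 7 over all windows.

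Tmem87a, which encodes a Golgi transmembrane protein, gave the smallest p of the comparison. It read 9.49 and 9.52 log2 in the heterozygous arrays and 8.64 and 8.49 in the homozygous ones, a difference of -0.94 ± 0.13 or 1.92-fold lower (adjusted p = 0.0785). The heterozygous cells were the ones that stood apart from the rest of the series. Over all 3 conditions the 6 heterozygous arrays lay at 9.49 to 9.70, the 6 homozygous ones at 8.46 to 8.64 and the 6 wt ones at 8.26 to 8.66. Gatm encodes the enzyme that makes guanidinoacetate, the precursor of creatine. It read 10.41 and 9.91 in heterozygous against 8.62 and 8.87 in homozygous cells, a difference of -1.41 ± 0.21 or 2.66-fold lower (adjusted p = 0.0785). Non-overlap of the untreated groups was a condition of the naming rule. Here wt arrays lay lower still, at 6.37 to 7.54 over the 6 arrays, so the level did not follow the number of mutant alleles. Neither gene had another probe set to compare it with.

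Directly beside Gatm in the order of measured genes, at places 485 and 486 of 812 after its 484, lie Spata5l1, an AAA ATPase gene of ribosome maturation, and AA467197. Both are dim in untreated cells, and both lay the other way from Gatm. Spata5l1 read 3.70 and 3.58 log2 in heterozygous and 4.66 and 4.90 in homozygous cells (difference 1.14 ± 0.32). All 4 values lie under log2 5, so no fold is given. AA467197 read 2.90 and 3.41 against 5.02 and 5.33, at least 1.13-fold higher in homozygous cells, with a fitted difference of 2.02 ± 0.74. Of the genes around them, Shf on one side and Slc30a4 on the other differed by 0.21 ± 0.25 and 0.07 ± 0.13. Pax1, a transcription factor gene of the sclerotome and limb girdle, lies at place 591. It read 2.37 and 3.26 in heterozygous against 5.91 and 5.33 in homozygous cells, at least 1.54-fold higher (fitted difference 2.80 ± 0.50, adjusted p = 0.298). The predicted gene Gm14057 at place 544 read 3.82 and 4.10 against 5.97 and 5.59, at least 1.72-fold higher (1.82 ± 0.45, adjusted p = 0.940). In Spata5l1, Pax1 and Gm14057 the 6 wt arrays lay with the homozygous ones: 4.67 to 5.68, 4.99 to 7.26 and 5.93 to 7.63 log2. The heterozygous arrays were the low ones throughout, with no value above 3.70, 3.26 and 4.14 in those 3 genes. These 4 dim genes were named after their values were seen.

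**Figure D2:**
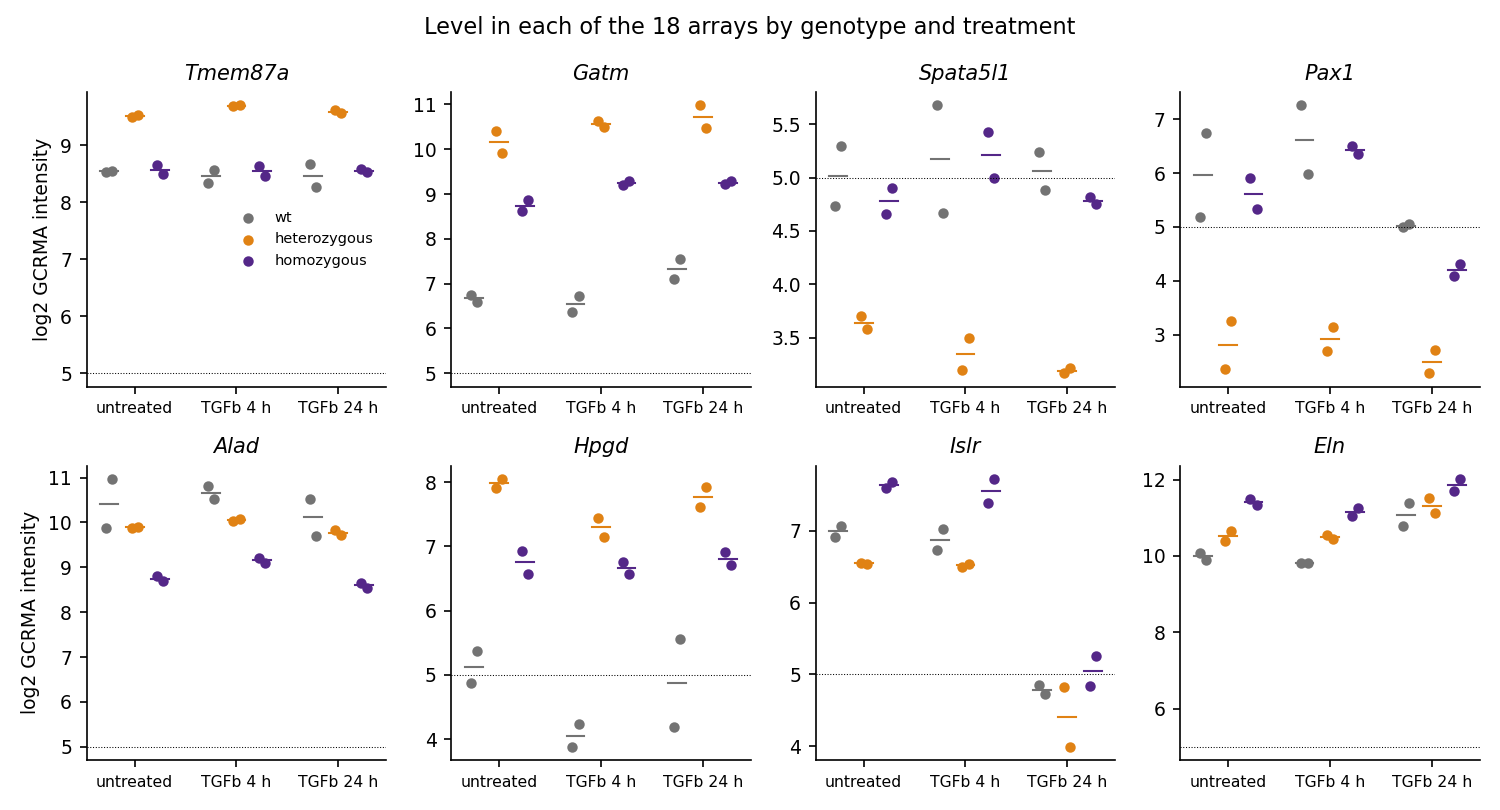
Level of 8 genes in log2 GCRMA intensity (y) in each of the 18 arrays, by treatment (x) and genotype (colour); points are arrays, short bars are means of 2 and the dotted line marks log2 5. In Tmem87a, Spata5l1 and Pax1 the heterozygous arrays lie apart from both other genotypes, and in Alad the homozygous arrays lie below both.

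Other genes of chromosome 2 between Baz2b and Nfs1 lay in both directions. Baz2b, a chromatin reader gene, differed by -0.53 ± 0.13 and Kbtbd4, a ubiquitin ligase adaptor gene, by -0.59 ± 0.13. Kbtbd4 read 8.12 and 7.97 log2 in heterozygous and 7.57 and 7.35 in homozygous cells. Haus2, an augmin subunit gene of the mitotic spindle, read 7.94 and 8.07 against 8.42 and 8.43, a difference of 0.42 ± 0.10. Gss, the glutathione synthetase gene, differed by -0.59 ± 0.19, the cysteine desulfurase gene Nfs1 by -0.51 ± 0.16, Cdk5rap1 by -0.62 ± 0.19 and the dynein light chain gene Dynlrb1 by 0.45 ± 0.13. Probe sets of the same gene disagreed for some genes of this chromosome. The other probe sets past the filter differed by -0.40 and -0.04 for Baz2b and by 0.28, 0.06 and 0.19 for Haus2. For Rbm39, a splicing factor gene, the brightest probe set differed by 0.08 ± 0.17, while 2 of its other 11 differed by -2.33 ± 0.42 and -1.65 ± 0.27. The former lay at 8.25 or higher in heterozygous cells and read 6.43 and 6.15 in homozygous cells. For Bloc1s6, a gene of lysosome-related organelles, the brightest probe set differed by 0.15 ± 0.10 and another by -1.04 ± 0.23.

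**Figure D3:**
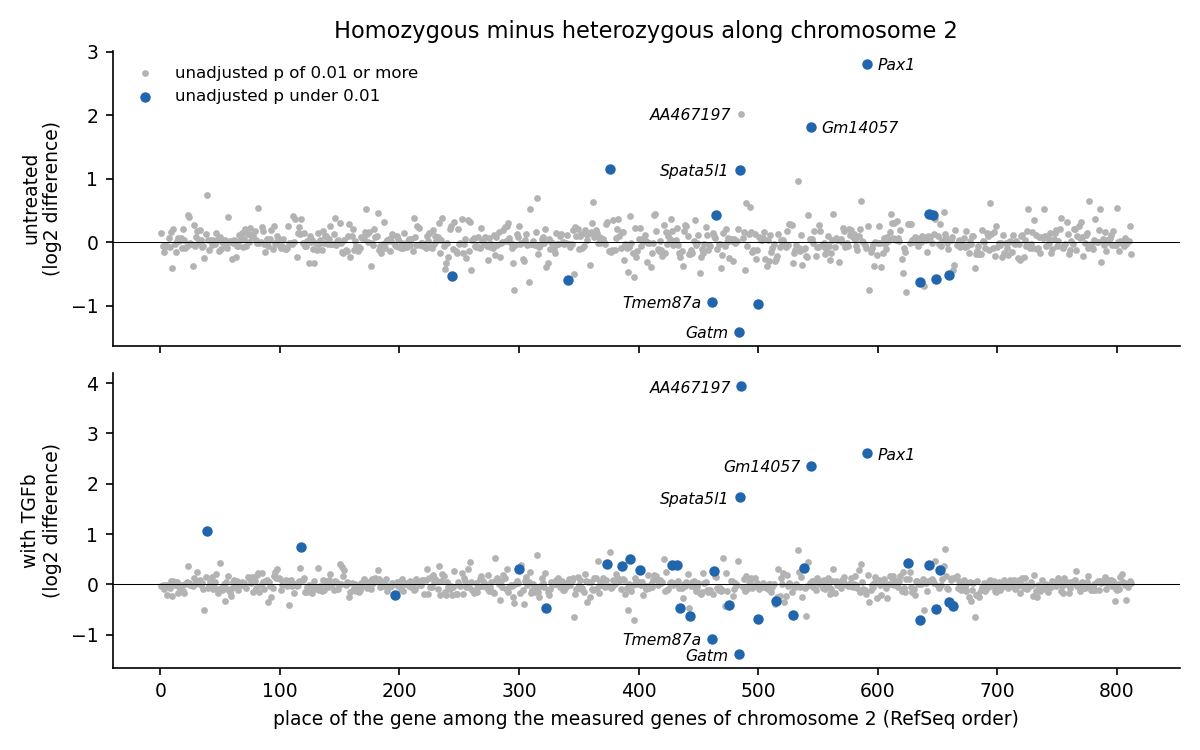
The 812 measured genes of chromosome 2 in RefSeq order (x) against the log2 difference of homozygous minus heterozygous cells (y), untreated (top) and with TGFb (bottom); blue points have an unadjusted p under 0.01. Of the 15 blue points of the top panel 12 lie from Tmem87a to Nfs1, and Gatm, Spata5l1 and AA467197 lie next to each other.

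The Tgfbr1 gene itself lies on chromosome 4, and the genes around it lay evenly about 0. Of the 50 measured genes nearest to it, 26 lay above and 24 below 0, with a median of 0.03 log2. At an unadjusted p under 0.05 was 1 of them, Slc25a51, a mitochondrial NAD carrier gene, at 0.46 ± 0.19. Alad, the second enzyme of haem synthesis, lies on the same chromosome at place 189 of the measured genes, against 142 for Tgfbr1. It read 9.88 and 9.90 log2 in heterozygous and 8.80 and 8.70 in homozygous cells, a difference of -1.14 ± 0.29 or 2.21-fold lower. The pairs were tight and far apart. Its adjusted p was 0.956 over 18 arrays and 0.000824 over the 12 mutant arrays; the 6 wt arrays ranged from 9.70 to 10.97.

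The remaining genes of the 10 lowest had less in common. Hpgd, the enzyme gene that inactivates prostaglandin E2, read 7.91 and 8.05 log2 in heterozygous and 6.93 and 6.57 in homozygous cells, a difference of -1.23 ± 0.35 or 2.34-fold lower. The wt arrays lay at 3.88 to 5.56, so the homozygous level was between the other genotypes. Fyb, an adaptor gene of blood cells, read 7.38 and 7.26 against 6.40 and 6.44, a difference of -0.90 ± 0.19. Fyb belongs with the macrophage genes described below by its usual place of expression. With the mean level of the macrophage markers as a covariate, its difference was -0.78 (adjusted p = 0.134). That fit has the limit given with the markers below, and the part of macrophages in the Fyb difference was not tested. Rras2, a Ras family GTPase gene, differed by -0.38 ± 0.09, the NF-kB regulator gene Nfkbiz by -0.38 ± 0.09 and Arhgap19 by -0.68 ± 0.19.

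Among the 10 genes with the smallest p on the higher side, 3 encode proteins of elastic fibres or their crosslinking. Eln, which encodes elastin, read 10.40 and 10.66 log2 in heterozygous and 11.48 and 11.34 in homozygous cells, a difference of 0.88 ± 0.19 or 1.84-fold. Fbn2, the fibrillin gene of early elastic microfibrils, read 10.22 and 10.75 against 11.19 and 11.29, a difference of 0.75 ± 0.19. Loxl4, a lysyl oxidase gene that crosslinks elastin and collagen, read 7.71 and 8.01 against 8.49 and 8.38, a difference of 0.58 ± 0.14. None of these 3 genes passed the test, and non-overlap of their pairs was a condition of the naming rule. Emilin2, an elastin-interface glycoprotein gene outside the named genes, lay the other way. It differed by -0.67 ± 0.20 with no overlap between the pairs, and it did not pass the test either. It was chosen after its values were seen. Islr, a leucine-rich repeat gene that marks mesenchymal stromal cells, read 6.55 and 6.54 against 7.60 and 7.68, a difference of 1.09 ± 0.24 or 2.13-fold. Twist1, a transcription factor gene of mesenchyme, read 9.46 and 9.62 against 10.12 and 10.14, a difference of 0.59 ± 0.12. Mrc2, a collagen uptake receptor gene, differed by 0.49 ± 0.12. The other 4 were the Wnt ligand gene Wnt9a at 0.57 ± 0.13, the immunoglobulin superfamily gene Igdcc4 at 0.39 ± 0.09, Haus2 and the ubiquitin ligase gene Rnf19b at 0.40 ± 0.10. The smallest adjusted p of the 10 was 0.638, for Twist1.

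The matrix lists leaned the same way as a group. Of 35 matrix glycoprotein, proteoglycan and elastic fibre genes, 30 lay above and 5 below 0, with a median of 0.14 log2 and 0 called. The 2 pairs did not overlap on the higher side for 19 of the 35, against 22.6% of all genes. At an unadjusted p under 0.05 were 5, all higher: Eln, Fbn2, Loxl4, the laminin chain gene Lama4 at 1.01 ± 0.31 and the proteoglycan gene Vcan at 0.40 ± 0.12. Lama4 read 7.97 and 7.61 in heterozygous against 8.65 and 8.95 in homozygous cells, and Vcan 11.27 and 11.39 against 11.72 and 11.73. Mfap4, a microfibril-associated gene, differed by 0.88 ± 0.44 with no overlap between the pairs.

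Collagen genes lay the same way, less evenly over the arrays. Of 22 collagen chains 19 lay above and 3 below 0, with a median of 0.17 log2 that was 0.07 without heterozygous array 2. The pairs did not overlap for 10 of them on the higher side and for 0 on the lower (all genes: 22.6% and 21.4%). Col18a1, which encodes the basement membrane collagen that yields endostatin, read 8.99 and 8.45 against 9.34 and 9.66, a difference of 0.79 ± 0.34, and was the only chain at an unadjusted p under 0.05. Of 14 collagen processing genes 12 lay above 0 and 2 below, with a median of 0.12. P3h3, a prolyl hydroxylase gene, differed by 0.41 ± 0.14 and Plod3, a lysyl hydroxylase gene, by 0.28 ± 0.13. Of 24 matrix protease and inhibitor genes 16 lay above 0, with a median of 0.13 (-0.02 without heterozygous array 2) and the gelatinase gene Mmp2 at 0.34 ± 0.12. Members of a list share a culture and are not replicates of it, so these counts describe 4 arrays.

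**Figure D4:**
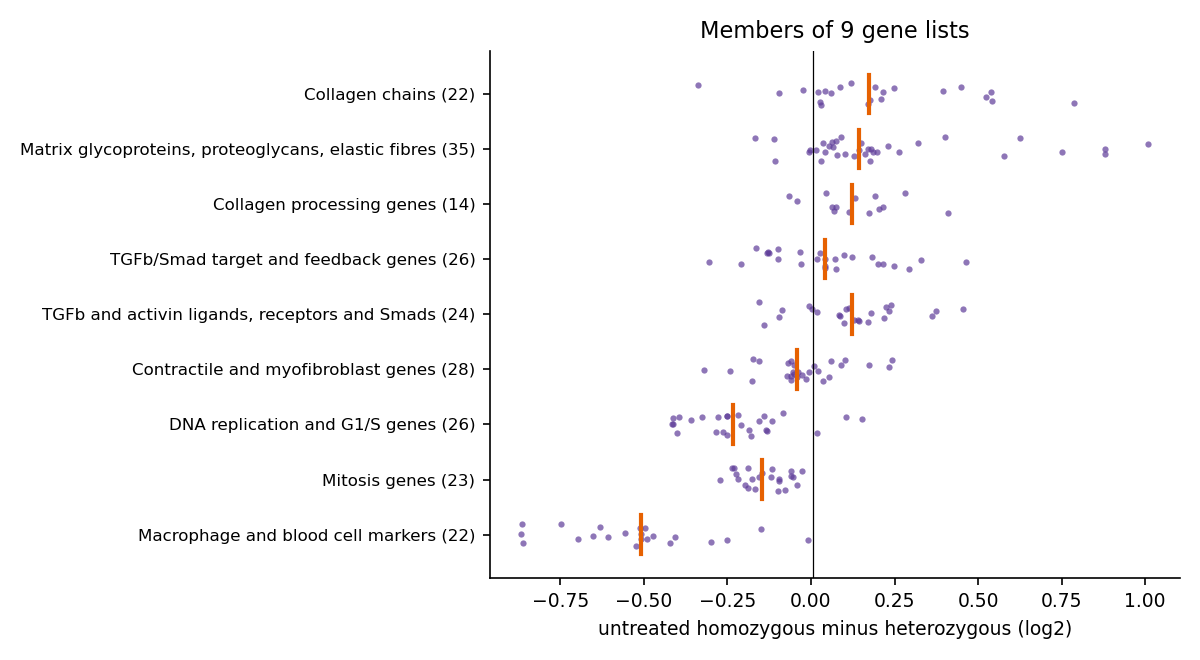
Log2 difference of untreated homozygous minus heterozygous cells (x) for each measured member of 9 gene lists (rows, with the number measured); orange bars are list medians and the vertical line is the median of all genes, 0.01. Macrophage and mitosis genes lie wholly below 0, and 30 of 35 matrix glycoprotein genes lie above it.

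By the mean level of their lists, cell cycle genes lay lower mainly in homozygous array 2, and less so or not at all in homozygous array 1. Of 26 DNA replication and G1/S genes 23 lay below and 3 above 0, with a median of -0.23 log2, and all 23 mitosis genes lay below 0, with a median of -0.15. At an unadjusted p under 0.05 were 6 replication genes, all lower, and 0 mitosis genes; 0 of either list were called. The pairs did not overlap on the lower side for 16 of the 26 replication genes and 10 of the 23 mitosis genes (all genes: 21.4%). For those genes both homozygous arrays lay below both heterozygous ones. On the higher side it was 1 and 0 (all genes: 22.6%). Cdc6 and Cdt1, which load the replicative helicase, differed by -0.42 ± 0.16 and -0.41 ± 0.19. Cdc6 read 8.83 and 8.73 in heterozygous against 8.58 and 8.15 in homozygous cells. The helicase genes Mcm5 and Mcm6 differed by -0.26 ± 0.12 and -0.25 ± 0.11, the flap endonuclease gene Fen1 by -0.33 ± 0.15 and the ribonucleotide reductase gene Rrm2 by -0.36 ± 0.16. The mean level of the mitosis genes was 10.39 and 10.35 in the heterozygous arrays, 10.37 in homozygous array 1 and 10.10 in homozygous array 2. Without array 2 the median of the mitosis list was -0.02. The replication genes averaged 10.04 and 10.01 against 9.93 and 9.70, and their median was -0.11 without array 2. Homozygous array 2 is the one with Y-linked RNA. With the mean level of the Y-linked genes as a covariate, the median was -0.13 for the mitosis list and -0.18 for the replication list. The wt pairs also enter that covariate fit, and the cause of the lower values was not tested.

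Macrophage and blood cell markers were lower in homozygous cells without exception. All 22 measured members lay below 0, with a median of -0.51 log2, and the pairs did not overlap on the lower side for 18 of them (all genes: 21.4%). The summed intensity of the list was 44067 and 35602 in the heterozygous arrays and 27028 and 28154 in the homozygous ones. The median of the list ranged from -0.81 to -0.35 when 1 array was left out, and was -0.10 with the Y-linked genes as a covariate. The slope of that covariate is set mostly by the wt and homozygous pairs, which were mixed in Y-linked RNA. The mean level of the markers was 7.25 and 6.02 in untreated wt arrays 1 and 2, of which array 2 carried Y-linked RNA. In homozygous arrays 1 and 2 it was 8.77 and 8.84. The part of Y-linked RNA in the macrophage difference was not tested. Csf1r, the macrophage growth factor receptor gene, read 11.09 and 10.54 log2 against 9.90 and 10.01, a difference of -0.86 ± 0.55. Ptprc, the pan-leukocyte gene CD45, read 8.18 and 7.64 against 7.18 and 7.37, a difference of -0.63 ± 0.76, and the lysozyme gene Lyz2 read 12.52 and 12.33 against 11.88 and 11.96, a difference of -0.51 ± 0.67. None of the 22 was called or reached an unadjusted p under 0.05 in the fit over 18 arrays. The 6 wt arrays spread widely in these genes, with Csf1r from 6.71 to 9.49. These 3 markers lay above log2 7 in all 4 arrays, and 21 or 22 of the 22 members lay above the dim level in each. In RNA of a mixed culture, fewer macrophages and less RNA per macrophage cannot be told apart. With the mean of the markers as a covariate, 6 genes were called untreated: Alad at -1.34, Gatm at -1.27, Tmem87a at -0.95, Pax1 at 2.46, Igfbp2 at 2.12 and Lama4 at 1.27. The slope of that covariate too is set mostly by the wt pairs, whose marker means differed most. In wt arrays 1 and 2 these were 5.98 and 7.89 at 4 h and 5.33 and 6.75 at 24 h. The array with Y-linked RNA was the lower one of each wt pair, so the 2 cannot be told apart there.

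Lists of other cell types and programmes held few such runs. Of 11 neural, glial and neural crest markers 9 lay above 0, with a median of 0.36 log2. The largest of them belonged to homozygous array 2, while the median was 0.34 without it: the radial glia gene Fabp7 read 9.70 and 9.30 in heterozygous cells and 9.92 and 11.75 in homozygous arrays 1 and 2, and the progenitor factor gene Sox2 read 3.12, 3.21, 3.17 and 6.44 in the same order. Of 26 limb bud and mesenchyme transcription factor genes 12 lay above and 14 below 0. Besides Pax1 and Twist1, Foxd1 differed by 0.46 ± 0.13 and Shox2 by -0.43 ± 0.19, so the members lay in both directions. Of 24 Hox genes 10 lay above and 14 below 0, with a median of -0.06. Among 24 secreted growth factor genes 14 lay above 0, and Lif, a gp130 cytokine gene, read 8.30 and 8.24 against 8.83 and 8.82, a difference of 0.55 ± 0.19. Fgf21 differed by 1.20 ± 0.40, with all 4 values under log2 5. Of 18 serum response factor and MRTF-related genes 13 lay below 0, with a median of -0.03. Of 16 cholesterol synthesis genes 13 lay below 0, with a median of -0.08 that was 0.14 without heterozygous array 2. Skeletal muscle genes had 8 of 11 below 0 (median -0.28, but 0.15 without heterozygous array 1), cartilage and bone genes 3 of 4 above, endothelial markers 3 of 7 above and epithelial markers 2 of 7 above. None of the members of these lists was called untreated over 18 arrays.

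The same genotype comparison in the 8 mutant arrays given TGFb1, 4 of each genotype, is set beside the untreated one. With the times averaged, 8 of 10078 genes were called (0.0794%), 4 higher and 4 lower in homozygous cells, and 6 of the 8 lie on chromosome 2. The fit takes the 4 arrays of a genotype as independent. Same-numbered arrays of 4 h and 24 h deviated together, at r = 0.38 (heterozygous) and 0.54 (homozygous) across genes, so the errors and p-values with TGFb may be too small. At an unadjusted p under 0.05 lay 191 higher (1.9%) and 274 lower (2.72%). Lower were Tmem87a by 1.09 ± 0.09 (adjusted p = 0.000393) and Gatm by 1.39 ± 0.15 (0.00224). Higher were AA467197, Pax1, Gm14057 and Spata5l1 (all adjusted p = 0.0104), genes that are dim in heterozygous cells. AA467197 was at least 7.41-fold higher, with 1 of 4 heterozygous arrays above log2 5. Gm14057 was at least 2.62-fold and Pax1 at least 1.24-fold higher, with all 4 heterozygous arrays below that level and, for Pax1, 2 of 4 homozygous ones. Spata5l1 allows no fold, at 3.17 to 3.50 against 4.75 to 5.43. The fitted differences were 3.93 ± 0.52, 2.35 ± 0.32, 2.61 ± 0.35 and 1.73 ± 0.23, and Pax1, Gm14057, Spata5l1 and Pif1 were not called when 16 was added before log2. The other 2, off chromosome 2, were lower: Emilin2, an elastin-interface glycoprotein gene, by 0.93 ± 0.14 (0.0280) and the helicase gene Pif1 by 0.80 ± 0.13 (0.0408). Pif1 differed by -0.06 ± 0.18 untreated and by -0.12 at 4 h and -1.48 at 24 h. Chromosome 2 held 32 of the 132 genes at an unadjusted p under 0.01 with TGFb, 3.94% of its genes against 1.31% of all. Only Tmem87a and Gatm were called whichever of the 8 arrays was left out, and the count was 2 or 3 without any of them but the first heterozygous array at 24 h, where it was 6. Over the 12 mutant arrays 37 genes were called (0.367%), 14 higher and 23 lower, and 13 of them lie on chromosome 2. The lower ones included Alad at -1.04 and, among the macrophage markers, Csf1r at -0.77 and Cd14 at -0.52.

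**Figure D5:**
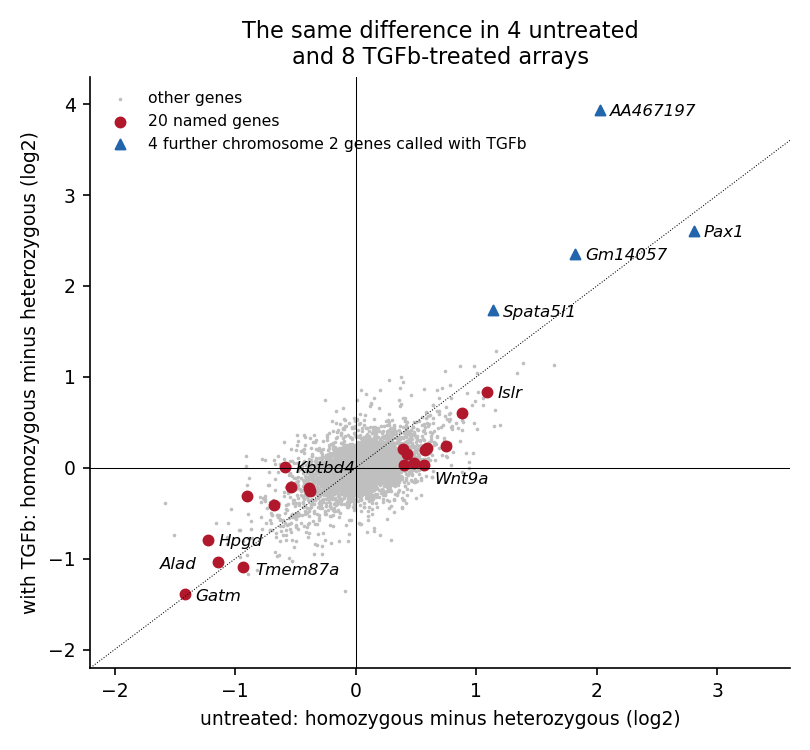
Log2 difference of homozygous minus heterozygous cells for each gene, untreated (x, 4 arrays) against the mean of TGFb 4 h and 24 h (y, 8 arrays); the dotted line marks equal differences and Xist, Eif2s3y, Uty and Kdm5d are left out. Gatm and Tmem87a lie near the line and AA467197 above it. Kbtbd4 and Wnt9a lie near 0 with TGFb, as means of 4 h and 24 h differences of opposite sign.

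For the 20 named genes, the sign with TGFb, averaged over 4 h and 24 h, was that of untreated cells in 19. Kbtbd4 was the exception at 0.01 ± 0.09. Over all genes the sign was shared by 60.7%, and over the 340 genes at an unadjusted p under 0.05 by 268 (78.8%). The average joins opposite signs for some named genes. Kbtbd4 differed by 0.16 at 4 h and -0.14 at 24 h, and Wnt9a by 0.20 and -0.15. Rnf19b lay at -0.05 at 4 h, and Fbn2 and Igdcc4 both lay at -0.02 at 24 h. The pairs did not overlap in the same direction in all 3 conditions for 13 of the 20, against 471 of all genes (4.67%). These shares are not alike, since the naming rule required non-overlap of the untreated pairs for the 20 but not for all genes. Eln lay higher by 0.60 ± 0.13 with TGFb and Islr by 0.84 ± 0.17. Other matrix genes had smaller values with TGFb: Fbn2 differed by 0.24 ± 0.14, Loxl4 by 0.20 ± 0.10 and Mrc2 by 0.06 ± 0.09, and the median of the collagen chains was 0.04 log2 against 0.17 untreated. No gene was called in the test of the difference between the treated and untreated comparisons with limma (0 of 10078, 0%, with 131 at an unadjusted p under 0.05 and 0 called over the 12 mutant arrays). The treated arrays cannot be taken as independent of the untreated ones. The deviations of same-numbered arrays from their group means correlated at 0.38 to 0.45 between conditions of the heterozygous cells and at 0.54 to 0.61 in the homozygous cells, across genes, and homozygous array 2 carried Y-linked RNA in all 3 conditions.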

How the data were processed

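RNA of 18 arrays was measured on Affymetrix mouse arrays from 2 ug of total RNA (RNeasy, a standard single amplification), per the labels. The authors deposited linear GCRMA intensities per probe set, per the submitters' processing notes, with no version named; no build or scan date was found in labels or files. No depth exists for arrays, so the 2 arrays of a group limit the precision. Values were taken to log2 with no further normalization. Of 45101 probe sets, 18958 reached log2 5 in at least 2 arrays, and the brightest with a single symbol stood for each of 10078 genes. R 4.3.3 and limma 3.58.1 fitted 9 group means (lmFit, eBayes with intensity trend, 9 residual degrees of freedom), with Benjamini-Hochberg adjustment and calls under 0.05. A group with no array above log2 5 enters a fold at that level, as a bound. The fit was tested on simulated data.

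Members, lists and tests were chosen with earlier results of these data known. Named are the 15 largest calls each way, or, with fewer than 10 calls, the 10 smallest unadjusted p each way among genes with non-overlapping pairs, a mean of log2 6 or more in 1 group and no clone name; also 11 measured key genes, called members of the 36 lists (866 genes, 633 measured) and the 50 genes nearest to Tgfbr1. Chromosome order and promoters come from RefSeq GRCm38.p6; of 34945 probe sets with a single symbol, 34741 matched it. Other genes, among them the dim chromosome 2 genes, were chosen after their values were seen. Same-numbered heterozygous and homozygous untreated arrays did not deviate together (r = -0.01 across genes), so numbers were not taken as pairs.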

Additional observations from a re-analysis of the deposited data

How the results depend on the processing

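Untreated, 0 genes were called also with a mean of log2 6 or more, probe sets averaged by gene, no cross-hybridizing (_x_at) probe sets, quantile normalization, equal array medians, 16 added before log2, no intensity trend, the 4 arrays alone, a replicate block over all arrays, the Y-linked covariate, each probe set tested singly (added after the data were seen) and without any array (0 to 0). The count was 7 with no filter, 14 with array weights, 7 over the 12 mutant arrays, 6 with the macrophage covariate and 1 (Gatm) with a replicate block within genotype, or 219 (120 higher, 99 lower) with that block over the 12 mutant arrays. With TGFb the 8 calls became 15 with no filter, 2 with a mean of log2 6, 5 with 16 added, 14 with array weights, 13 with only the groups compared, 37 over the 12 mutant arrays, 42 with the macrophage covariate and 479 with the within-genotype block over the 12, and 2 to 6 without an array. The replicate block within genotype gave 10 calls with TGFb, 6 of them among the 8 (without Gm14057 and Pif1), and 1 block over all arrays gave 7, also 6 of the 8 (without Emilin2 and Pif1). By construction the former takes the spread between the numbered series of a genotype out of the error, and same numbers do not pair the genotypes. Treated against untreated differences gave 2 calls with no filter and 0 otherwise (0 to 0 without an array). For other changes the cause was not tested.

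The 20 named genes kept their direction in all alternatives run. Over 38 genes and their alternatives, 694 of 753 values stayed on their side of the threshold, 49 passed it and 10 changed sign. List medians, which fits with fewer groups cannot move, kept their sign for 35 of 35 lists under quantile normalization and 33 with equal array medians. In alternatives added after the data were seen they kept it for 30 with either covariate, and for 30, 22, 29 and 31 without heterozygous array 1, heterozygous array 2, homozygous array 1 and homozygous array 2. Genes near 0 changed sign: Acta2 to -0.11 with probe sets averaged (-0.025 to 0.044 without an array); Ccn2 to 0.0013 with the Y-linked and 0.0086 with the macrophage covariate (-0.063 to 0.0059 without an array); Skil to 0.000917 with the macrophage covariate (-0.083 to 0.018 without an array); Il11 without an array (-0.32 to 0.060, positive without heterozygous array 2 or homozygous array 2); Pif1 to 0.0082 with the Y-linked covariate. With 40.2% to 40.4% of probe sets above the dim level, changes of dim genes are poorly measured.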

Other observations

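Several genes with differences over 2-fold, none of which passed the test over 18 arrays, were chosen after their values were seen. Myeloid genes were among the lower ones: Trem2, a microglia and macrophage receptor gene, read 5.39 and 5.26 log2 in heterozygous and 3.54 and 4.09 in homozygous cells, at least 1.25-fold lower. C5ar1, the complement C5a receptor gene, read 7.75 and 7.37 against 6.49 and 6.49 (-1.07 ± 0.47), and Ncf1, a subunit gene of the phagocyte oxidase, lay at 6.75 or higher against 5.61 and 6.02 (-1.06 ± 0.50). They lay lower beside the macrophage markers, and the part of those cells in the values was not tested. Ahr, the aryl hydrocarbon receptor gene, read 9.38 and 7.89 against 9.65 and 9.73, a difference of 1.06 ± 0.42 in which heterozygous array 2 was the low one.

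Some large differences belonged to 1 homozygous array in all 3 conditions. Map3k7cl read 2.27, 3.20 and 2.34 log2 in the first homozygous array of untreated, 4 h and 24 h cells and 8.05, 8.57 and 5.44 in the other. Sox2 read 6.44, 5.50 and 5.32 in the array of the pair that carried Y-linked RNA and 3.15 to 3.20 in the other. Igfbp2, an IGF-binding protein gene, read 10.20 and 9.55 in heterozygous and 10.81 and 11.70 in homozygous untreated cells. It differed by 1.39 ± 0.84 and was higher in both homozygous arrays.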
